A study of Mus musculus with 30 samples.

Results

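Complement is a cascade of secreted proteins that tags cells, debris and microbes for removal. The classical and lectin routes cleave C4 and join it to C2, the alternative route joins C3 to factor B, and both products cleave C3, the protein on which all routes meet. Inhibitors such as factor I and the C1 inhibitor limit the cascade, and the fragment C3a signals to cells through its receptor. In the eye these proteins are made by the tissue itself as well as carried in the blood, and in the brain they take part in the removal of synapses by microglia.

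The genes described here were 7 components, inhibitors and receptors of this cascade: C3, C4b, C2, Cfb (factor B), Cfi (factor I), Serping1 (the C1 inhibitor) and C3ar1 (the C3a receptor). Every probe that carried one of these gene names was taken, which gave 10 of the 41174 probes that are not controls. RNA came from adult male Per3-/- mice (KO) and wild-type littermates (WT) on a C57Bl/6J background. All of them had been kept in an ultradian light-dark cycle of 3.5 h light and 3.5 h dark and were killed in cycle 17. The whole eye was measured in 7 WT and 7 KO mice and the hypothalamic block, a piece of brain around the optic chiasm, in 8 WT and 8 KO mice, with 1 array per mouse and tissue, and the 14 eyes came from mice whose hypothalamus was also measured. The labels give tissue, genotype and replicate number, and the same genotype and number in both tissues was taken as 1 mouse. Per3 is a circadian clock gene. The KO is constitutive and functional, made by a cassette that replaces part of the gene, so a Per3 transcript can remain: the Per3 probe was 0.45 log2 units lower in KO than in WT eyes (SE 0.23, limma adjusted p = 1.0) and 0.51 lower in KO hypothalami (SE 0.09, adjusted p = 0.067).

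All values are log2 signals relative to the 75th percentile of the array, so 0 is a brightly expressed probe and each unit is a doubling of signal. Between 71.4% and 80.7% of probes were well above background on the eye arrays and between 67.9% and 75.6% on those of the hypothalamus. Each tissue lay on 4 slides of its own, with both genotypes on every slide, so tissue and slide set cannot be told apart. The photoreceptor marker Opn1sw and the lens marker Mip were well above background in every eye and in no hypothalamus. Other lens and photoreceptor markers were also detected in the hypothalamus, 2 of the 5 lens markers on every array. The 7 hypothalamic neuropeptide genes with a probe were well above background in every hypothalamus, and 5 of them in every WT eye and 5 in every KO eye. The summed linear signal of the lens markers, in multiples of the 75th percentile, was 1052 to 1387 in WT eyes and 0.11 to 0.14 in WT hypothalami. That of the neuropeptide genes was 1.45 to 1.92 and 116 to 140. The eye of KO mouse 2 stood apart on several complement genes. Therefore the eye genotype effects of C3, Cfb and Cfi are also given without this eye, and the tissue difference of Cfi without this mouse. It lay far from the other KO eyes on Cfd, C8g, Hc and Cd93, whose tissue values are given only with it. In whole tissue, fewer cells of a type and less RNA per cell cannot be told apart.

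The probes on which the results turn are shown first because they fix which transcript each value reads. The C3 probe (A_51_P110301, printed on the array 10 times) lies at chr17:57343416-57343475, the C4b probe (A_51_P428708) at chr17:34866361-34866420, the C2 probe A_52_P428699 at chr17:35000126-35000301, the Cfb probe (A_51_P413866) at chr17:34993502-34993858 and the Serping1 probe (A_51_P376238) at chr2:84605968-84607474, all on the minus strand of mm9. The last 3 intervals cover 176, 357 and 1507 bases of genome for a probe of 60 bases, so each of these probes spans a splice junction. C2 and Cfb are neighbours in the genome. The accessions that the array gives for the C4b probe include one of C4a, so signal from this pair of near-identical genes cannot be told apart.
C3: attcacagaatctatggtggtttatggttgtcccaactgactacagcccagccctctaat
C4b: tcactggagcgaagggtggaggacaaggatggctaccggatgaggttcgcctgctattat
C2: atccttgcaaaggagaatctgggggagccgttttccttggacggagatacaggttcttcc
Cfb: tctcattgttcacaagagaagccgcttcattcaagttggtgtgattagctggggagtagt
Serping1: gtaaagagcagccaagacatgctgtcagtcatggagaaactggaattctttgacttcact

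Complement genes were far more strongly expressed in the eye than in the hypothalamus. Of the 10 probes, 9 differed between the tissues at an adjusted p under 0.05 (limma over all 30 arrays, mouse as random block, Benjamini-Hochberg adjustment over all probes), all 9 higher in the eye. Across the whole array 81.6% of probes differed and 45.4% were higher in the eye. By their measured means all 9 were more than 2-fold higher in the eye, as 25.7% of all probes were, although the dim second probes of C3 and C3ar1 carry only a lower bound. The median over the 7 genes (1 probe per gene, that of highest mean signal) was 2.68 log2 units, against 0.15 over all probes. For 6 probes, those of C4b, Cfb and Serping1, both of C2 and the brighter one of C3, every eye lay above every hypothalamus, which held for 24% of all probes.

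**Figure D1:**
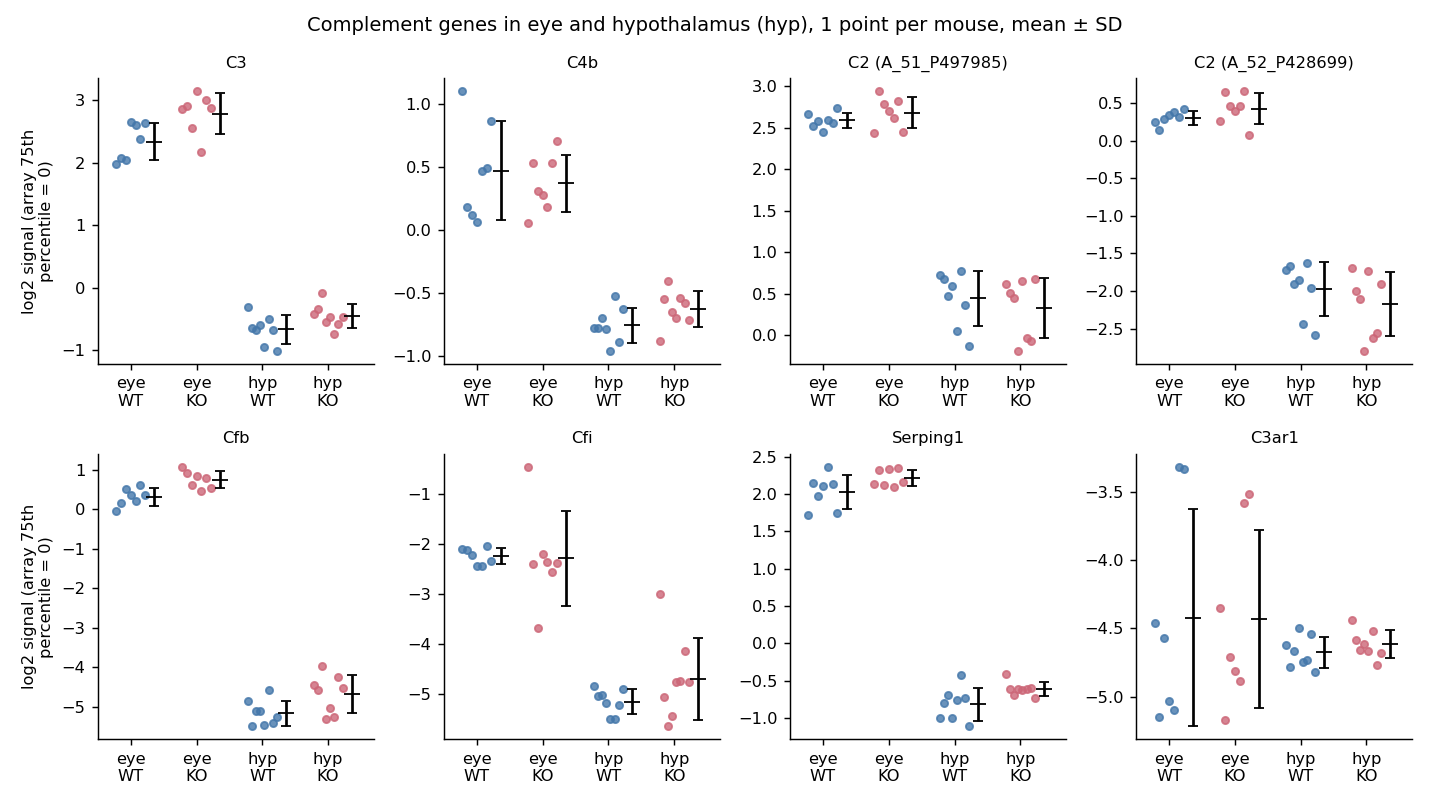
Log2 signal of each complement gene (y axis, 0 = 75th percentile of the array) in eyes and hypothalami of WT (blue) and KO (red) mice, 1 point per mouse, with mean and SD beside the points. The probes shown were well above background on all 30 arrays, and for all of them except Cfi and C3ar1 every eye lies above every hypothalamus.

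C3 itself ran from 1.98 to 2.65 in WT eyes (median 2.38) and from 2.17 to 3.14 in KO eyes (median 2.87). In the hypothalamus it ran from -1.01 to -0.31 in WT mice (median -0.65) and from -0.74 to -0.09 in KO mice (median -0.47). The eye was higher by 3.12 ± 0.09 (SE), or 8.72-fold, with more than 2 log2 units between the lowest eye and the highest hypothalamus. The second C3 probe, A_52_P133594, was dim: it was well above background in 9 of 14 eyes and in no hypothalamus, so the eye was at least 1.36-fold higher by this probe.

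C4b, whose product supplies a subunit of the classical and lectin convertase, differed least among the 6 genes that were higher in the eye. Its log2 signal was 0.06 to 1.099 in WT eyes (median 0.47), 0.06 to 0.70 in KO eyes (median 0.31), -0.96 to -0.52 in WT hypothalami (median -0.78) and -0.88 to -0.40 in KO hypothalami (median -0.61). The eye was higher by 1.11 ± 0.08, or 2.16-fold.

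C2, the protease that C4 binds, was read by a pair of probes that agreed on the size of the difference. Probe A_51_P497985 had a log2 signal of 2.45 to 2.74 in WT eyes (median 2.59) and 2.44 to 2.94 in KO eyes (median 2.70), against -0.13 to 0.78 in WT hypothalami (median 0.54) and -0.19 to 0.68 in KO hypothalami (median 0.48). The eye was higher by 2.25 ± 0.10 by this probe, a 4.75-fold difference, and by 2.44 ± 0.11 by probe A_52_P428699, a 5.42-fold difference. The eyes of both genotypes lay close together, and the hypothalami were spread more widely.

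Cfb, the alternative-pathway protease that binds C3, had the largest tissue difference of the 7 genes. Its log2 signal was -0.03 to 0.61 in WT eyes (median 0.36) and 0.46 to 1.07 in KO eyes (median 0.80). In the hypothalamus it was -5.50 to -4.59 in WT mice (median -5.19) and -5.31 to -3.96 in KO mice (median -4.55), which was still well above background on all 16 arrays. The eye was higher by 5.44 ± 0.12, or 43.5-fold. With normexp, another background correction that raises dim signals, the difference was 4.28. That fit took median spot signals in the eye and mean spot signals in the hypothalamus.

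The inhibitors were also higher in the eye. Serping1, which blocks the C1 proteases, had a log2 signal of 1.72 to 2.36 in WT eyes (median 2.11) and 2.09 to 2.34 in KO eyes (median 2.16), and of -1.11 to -0.43 (median -0.78) and -0.73 to -0.41 (median -0.61) in WT and KO hypothalami. The eye was higher by 2.83 ± 0.06, or 7.13-fold, the smallest standard error of the 10 probes. Cfi, the protease that inactivates C3b and C4b, was higher in the eye by 2.68 ± 0.22, or 6.40-fold, but varied widely within the KO mice. Its log2 signal was -2.43 to -2.04 in WT eyes (median -2.21) and -3.67 to -0.45 in KO eyes (median -2.37), and -5.52 to -4.84 (median -5.115) and -5.66 to -3.01 (median -4.77) in WT and KO hypothalami. The highest KO eye was that of mouse 2 and the highest KO hypothalamus that of mouse 1, and without KO mouse 2 the tissue difference was 2.50.

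C3ar1, the receptor for C3a on myeloid cells, was the exception. Its brighter probe, A_51_P282557, had a log2 signal of -5.15 to -3.32 in WT eyes (median -4.57), -5.17 to -3.52 in KO eyes (median -4.71), -4.82 to -4.50 in WT hypothalami (median -4.70) and -4.77 to -4.44 in KO hypothalami (median -4.64). The tissues overlapped and differed by 0.22 ± 0.17 (adjusted p = 0.247), a value that was -0.34 (adjusted p = 0.044) after quantile normalization and 0.38 (adjusted p = 0.038) with normexp, under which the median of all probes was 0.34, so no direction is given. The spread in the eye followed the slide: the 4 eyes on slide 4 had values of -3.58 to -3.32, and the 10 eyes on slides 1 to 3 had values of -5.17 to -4.35. The second probe, A_52_P81345, was well above background in 4 of 14 eyes, all KO, and in no hypothalamus, which puts the eye at least 1.17-fold higher by this probe.

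The rest of the complement system showed a more mixed pattern between the tissues. Of 51 other complement genes with a probe, 32 were higher and 11 lower in the eye at an adjusted p under 0.05. Their median difference was 0.78 log2 units, against 0.15 over all probes. Over all probes 81.6% differed and 45.4% were higher in the eye, the rest of those that differed being lower. These shares also stand beside the counts of each list that follow, which are too small to be set apart from them. Of the 17 other classical and lectin genes, 11 were higher and 3 lower. The C1 protease genes C1s1 and C1ra were higher in the eye by 4.97 ± 0.11 and 4.81 ± 0.10. By contrast, C1qb, a chain of the C1q recognition protein that microglia make, was lower by 0.98 ± 0.08 on the log2 scale. Masp1, a lectin-pathway protease, was lower by 1.22 ± 0.08. Both other alternative-pathway genes were higher in the eye. Cfp (properdin, which stabilizes the alternative convertase) was higher by 0.78 ± 0.10. Cfd (factor D, which cleaves factor B and is made in abundance by fat cells) had a mean of 4.33 ± 1.34 (SD, n = 14) in the eye and was well above background in 1 of 16 hypothalami, where its mean was -7.56.

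Of the 7 terminal genes, 4 were higher and 2 lower in the eye. C6 was higher by 1.60 ± 0.18 on the log2 scale, and the differences of C8g and Hc (C5) were -0.60 ± 0.14 and -1.58 ± 0.23. Of the 17 other regulators with a probe, 10 were higher and 4 lower. Cd55b, a decay-accelerating factor, was not well above background in any hypothalamus and at least 3.66-fold higher in the eye, and Vtn (vitronectin, which blocks the terminal complex) was higher by 2.24 ± 0.06. Susd4 and Csmd3, neuronal complement inhibitors, had differences of -2.20 ± 0.06 and -3.04 ± 0.06 in the opposite direction. Of the 8 other receptors, 5 were higher in the eye, led by Cr2 (2.10 ± 0.16) and Itgax (1.87 ± 0.12), and 2 were lower, Cd93 at -0.75 ± 0.07 and C5ar2 at -1.003 ± 0.05.

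**Figure D2:**
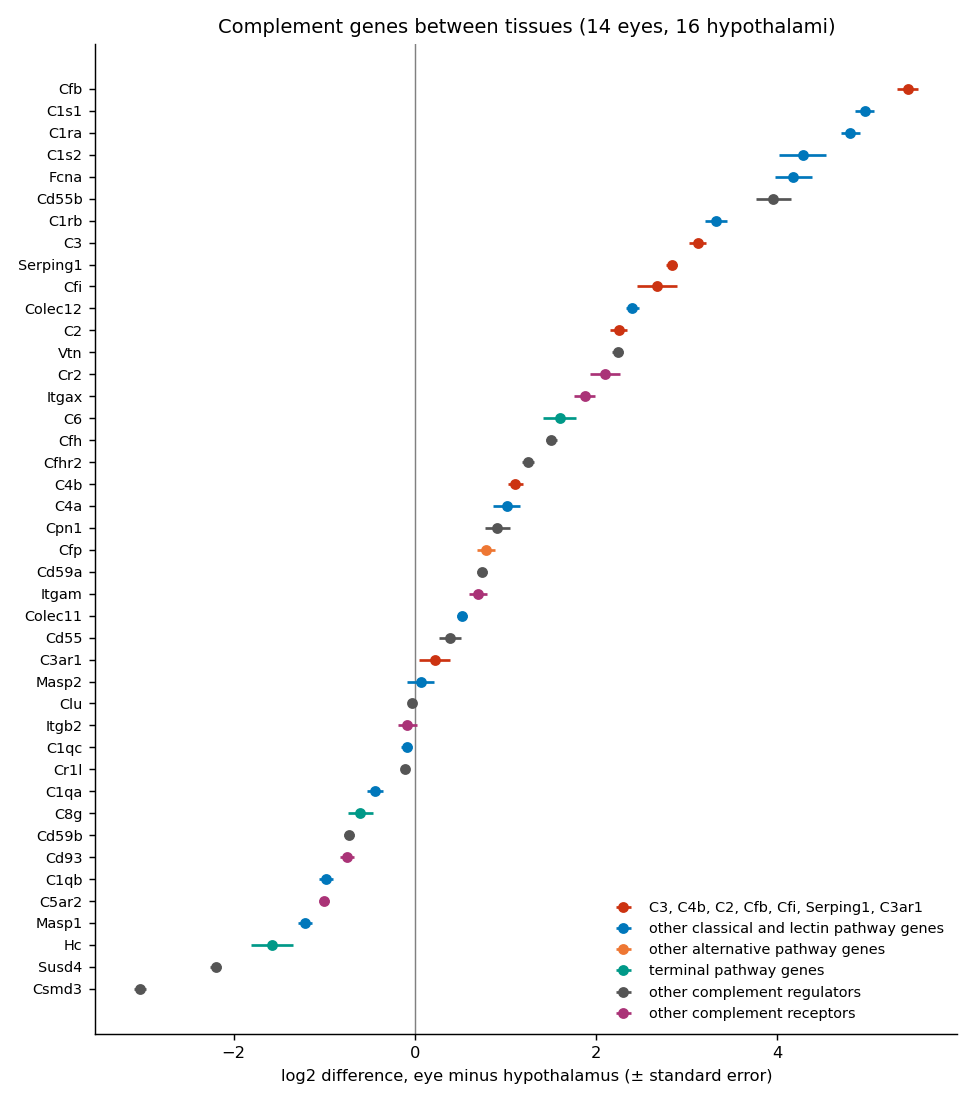
Difference in log2 signal, eye minus hypothalamus (x axis, with standard error), for the 7 complement genes (red, 1 probe per gene) and for other complement genes clearly detected on all arrays of 1 tissue or both, coloured by pathway. Cfb lies farthest to the right at 5.44 and Csmd3 farthest to the left at -3.04; Cfd, at 11.89, lies beyond the axis and is left out, and genes with a hypothalamus below background (Cd55b among them) have only a lower bound.

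The second question was whether the loss of Per3 moved these genes. In the eye none of the 10 probes passed an adjusted p of 0.05 (limma over 14 arrays; 0.0194% of all probes did), and all had an adjusted p of 1.0; the methods' t-test with the same adjustment gave 0 as well. At an unadjusted p under 0.05 there were 2, C3 and Cfb, both higher in KO, where 1.8% of all probes passed and 0.937% were higher in KO. The paper had already described a network around C3 among the genes that differed between genotypes in these eyes. C3 was thus chosen with this result known, and its unadjusted and permutation p-values do not allow for that choice. C3 was higher in KO eyes by 0.45 (SE 0.16, limma unadjusted p = 0.015, exact permutation p = 0.022). Of the 7 KO eyes 5 lay above every WT eye, and the ranges overlapped. The KO mean was the higher one on each of the 4 slides, by 0.03 to 0.89. Cfb was higher in KO eyes by 0.44 (SE 0.12, limma unadjusted p = 0.0020, exact permutation p = 0.0035), again with 5 of 7 KO eyes above every WT eye and higher KO means on all 4 slides, by 0.19 to 1.102. With the replicate number as a block C3 was at 0.38 (limma unadjusted p = 0.052), outside the unadjusted threshold, and Cfb at 0.33 (unadjusted p = 0.012). Slide 1 held only 1 eye of each genotype, the KO one that of mouse 2, and gave the largest difference for both genes. Leaving out the eye of KO mouse 2 left differences of 0.44 for C3 and 0.39 for Cfb. Under normexp, which moved the median of all probes to 0.17, the differences were 0.40 (unadjusted p = 0.054) and 0.44 (unadjusted p = 0.0024), or 0.23 and 0.27 relative to that shift.

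No other complement probe reached an unadjusted p of 0.05 in the eye. Serping1 was at 0.19 (SE 0.10, exact permutation p = 0.094), with all 7 KO eyes above the WT mean and none above every WT eye. The C2 probes were at 0.09 and 0.12, C4b at -0.10, C3ar1 at -0.01 and Cfi at -0.05, the last with a standard error of 0.34 and a value of -0.35 without KO mouse 2. The dim second C3 probe, well above background in 3 WT and 6 KO eyes, was at 0.96 (SE 0.48). The second C3ar1 probe was well above background in 0 of 7 WT and 4 of 7 KO eyes, and no difference is given for it. The median over the 7 genes was 0.09 log2 units, against 0.00 over all probes. No complement probe had every KO eye above every WT eye, which 0.0219% of all probes had.

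In the hypothalamus none of the 10 probes passed the adjusted threshold either (limma over 16 arrays, adjusted p = 0.99 for all 10; 0.0413% of all probes passed). Cfb and Serping1 were below an unadjusted p of 0.05, both higher in KO, where 2.8% of all probes were below it and 1.2% were higher in KO. Cfb was higher in KO hypothalami by 0.49 (SE 0.20, limma unadjusted p = 0.023, exact permutation p = 0.033). Of the 8 KO hypothalami 5 lay above every WT hypothalamus, and the KO mean was higher on 3 of 4 slides (-0.12 to 0.95). The value was 0.12 (unadjusted p = 0.29) with normexp. Serping1 was higher by 0.21 (SE 0.08, limma unadjusted p = 0.025, exact permutation p = 0.031). All 8 KO hypothalami lay above the WT mean, 1 lay above every WT hypothalamus, and the KO values were packed more tightly, with an SD of 0.09 against 0.22. The KO mean was higher on 3 of 4 slides (-0.03 to 0.39). Leaving out 1 hypothalamus at a time gave 0.16 to 0.26, with a limma unadjusted p of up to 0.053.

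C3 was at 0.21 in the hypothalamus (SE 0.10, limma unadjusted p = 0.056, exact permutation p = 0.065), with a higher KO mean on all 4 slides (0.10 to 0.32). C4b was at 0.13 (SE 0.07), also higher in KO on all 4 slides, Cfi at 0.46 (SE 0.29; 0.22 without KO mouse 1), C3ar1 at 0.06 (SE 0.06) and the C2 probes at -0.12 (SE 0.16) and -0.20 (SE 0.19). The median over the 7 genes was 0.21, against -0.01 over all probes, and no probe had every KO hypothalamus above every WT one (0.00971% of all probes had).

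**Figure D3:**
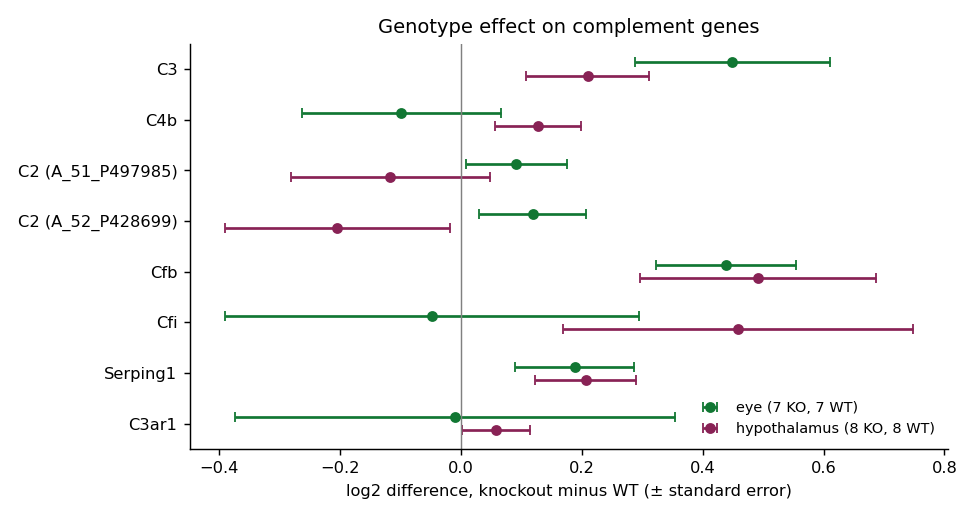
Difference in log2 signal, KO minus WT (x axis, with standard error), for the complement probes well above background on all arrays, in the eye (green, 7 KO and 7 WT) and the hypothalamus (purple, 8 KO and 8 WT). Cfb lies at 0.44 and 0.49 in the 2 tissues and C3 at 0.45 and 0.21; no difference passed an adjusted p of 0.05.

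The difference between the genotype effects of the tissues was tested directly over all 30 arrays. None of the 10 probes passed an adjusted p of 0.05 (0.00486% of all probes did), and none reached an unadjusted p of 0.05 (2.24% of all probes did). The genotype effect in the eye minus that in the hypothalamus was -0.05 ± 0.23 (SE) for Cfb, -0.02 ± 0.12 for Serping1 and 0.24 ± 0.18 for C3. With standard errors of this size, these values do not show that the effects were alike in both tissues.

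Other complement genes gave no call between genotypes. In the eye 0 of 51 passed the adjusted threshold and 2 were higher in KO at an unadjusted p under 0.05, C1s1 at 0.27 and Cd55b at 0.53, with a median of 0.22 over the 51. In the hypothalamus 0 of 51 passed and 1 was higher at an unadjusted p under 0.05, C1ra at 0.39, with a median of 0.04. Of the 20 acute-phase and inflammation genes examined beside them, 0 passed in either tissue and 3 (Orm1, Orm2 and Lcn2) were higher in KO eyes at an unadjusted p under 0.05. No marker of another cell type passed the adjusted threshold in either tissue. The summed linear signal of the 10 microglia and macrophage markers, in multiples of the 75th percentile, was 15.9 to 21.3 in WT and 17.3 to 19.4 in KO eyes, and 18.2 to 27.9 and 22.1 to 26.8 in WT and KO hypothalami, with all 10 markers well above background on every array. That of the 9 liver plasma protein genes with a probe was 19.9 to 30.8 in WT and 23.1 to 81.9 in KO eyes. The part of other cells in the values of C3, Cfb and Serping1 was not tested.

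The third question was which complement genes varied together from mouse to mouse. In the eye, none of the other 9 probes passed an adjusted p of 0.05 for a slope on C3 with genotype in the model (limma; 0% of all probes did, 7.78% at an unadjusted p under 0.05), and none of the 9 had an unadjusted p under 0.05. Cfb had the closest relation to C3 of the 9, with a slope of 0.35 log2 units per unit of C3 (SE 0.18, adjusted p = 0.59). Its Pearson r over all 14 eyes was 0.72 (permutation p = 0.0041; Spearman coefficient 0.68, permutation p = 0.0084), 0.68 without the 2 eyes farthest from the median of C3 and 0.78 after removal of slide means. This r includes the difference between the genotypes: within WT eyes it was 0.32 (exact permutation p = 0.47) and within KO eyes 0.66 (exact permutation p = 0.10). Of the 9 relations computed in the eye, 8 were positive and 3 had a permutation p under 0.05, those of Cfb, Serping1 and the dim C3ar1 probe. All 9 values of r leave genotype out and so include any difference between the genotypes. In the limma fit without a genotype term, 2538 of 41173 probes had an unadjusted p under 0.05. With genotype in the model 54.8% of all slopes were positive.

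Serping1 had an r of 0.60 with C3 over the 14 eyes (permutation p = 0.025; Spearman coefficient 0.64, permutation p = 0.015; limma slope 0.25, adjusted p = 0.59). Without the 2 eyes farthest from the median of C3, which narrows the range of C3, the r was 0.37. It was 0.66 after removal of slide means, 0.30 within WT eyes (exact permutation p = 0.47) and 0.76 within KO eyes (exact permutation p = 0.012). The Spearman coefficient was 0.29 within WT eyes (exact permutation p = 0.56) and 0.96 within KO eyes (exact permutation p = 0.0028). C4b, whose product acts directly upstream of C3, had an r of -0.04, and the C2 probes had 0.24 and 0.38. Neither gene had a permutation p under 0.05 over the 14 eyes, which does not show that they vary apart from C3. Within WT eyes the C2 probe A_52_P428699 had an r of 0.83 with C3 (exact permutation p = 0.017), whereas the other C2 probe had -0.04 (exact permutation p = 0.92). Within KO eyes their values were -0.02 and 0.12.

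**Figure D4:**
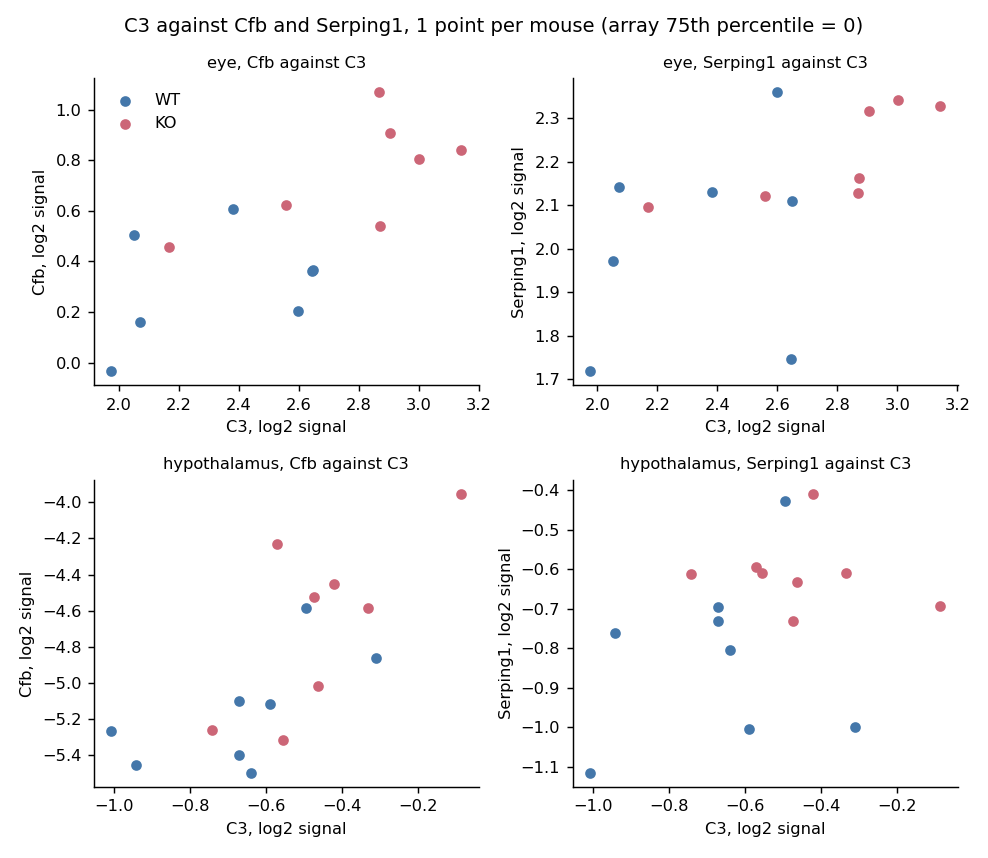
Log2 signal of Cfb (left) and Serping1 (right) against that of C3, 1 point per mouse, in the eye (top, 14 mice) and the hypothalamus (bottom, 16 mice), WT in blue and KO in red. The Cfb panels show r of 0.72 in the eye and 0.74 in the hypothalamus; for Serping1 r was 0.60 and 0.34.

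In the hypothalamus the order depended on the measure. Cfb had the highest r with C3 over all 16 mice, and the slopes of both C2 probes had a lower p than that of Cfb with genotype in the model. The r of Cfb over the 16 mice was 0.74 (permutation p = 0.00077; Spearman coefficient 0.74, permutation p = 0.0015), 0.64 without the 2 mice farthest from the median of C3, 0.81 after removal of slide means, 0.64 within WT (exact permutation p = 0.084) and 0.71 within KO mice (exact permutation p = 0.042). The slope was 1.27 log2 units of Cfb per unit of C3 (SE 0.39, limma unadjusted p = 0.0056), and its adjusted p was 0.15. None of the 9 probes passed the adjusted threshold (0.00243% of all probes did), while those of Cfb, both of C2 and the dim one of C3ar1, which was well above background in no hypothalamus, had an unadjusted p under 0.05, as 15.6% of all probes had; their 4 slopes were positive (4.06% of all probes). Serping1 had an r of 0.34 (permutation p = 0.20) and C4b one of 0.39 (permutation p = 0.13). Of the 10 microglia and macrophage markers, 5 had a positive slope on hypothalamic C3 at an unadjusted p under 0.05 and 0 at an adjusted p, a count that ran from 0 without WT mouse 1 to 7 without WT mouse 5. The part of these cells in the relation of Cfb with C3 was not tested.

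C2 in the hypothalamus fell into separate levels, so no correlation over all 16 mice is given. In 5 mice (2 WT and 3 KO, on 3 slides) the probe A_51_P497985 had a log2 signal of -0.19 to 0.05, and in the other 11 (6 WT and 5 KO, on 4 slides) it had 0.37 to 0.78. The gap of 0.32 compares with 0.09 for the widest gap elsewhere among the 16 values. The second C2 probe, which lies in another part of the transcript, put the same 5 mice at -2.79 to -2.43 and the other 11 at -2.10 to -1.63. In the eye the C2 levels of these 5 mice were 2.45 to 2.82, within the 2.44 to 2.94 of the 9 others measured. C3 was -1.01 to -0.55 in the 5 mice and -0.67 to -0.09 in the other 11, so the mice of low C2 lay in the lower part of the C3 range and the levels overlapped. The slopes of C2 on C3, which span both levels, were 1.22 (SE 0.30, limma unadjusted p = 0.0010, adjusted p = 0.10) for A_51_P497985 and 1.29 (SE 0.36, limma unadjusted p = 0.0026, adjusted p = 0.12) for A_52_P428699. Within the 11 mice of the upper level, where the choice by C2 itself narrows its range, C2 and C3 had an r of 0.02 (permutation p = 0.95, Spearman coefficient 0.17, permutation p = 0.61).

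**Figure D5:**
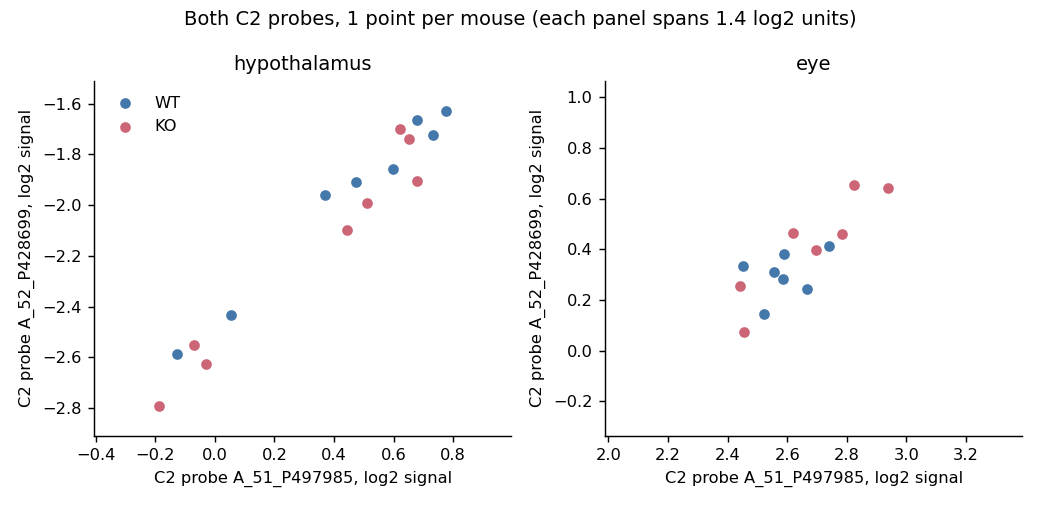
Log2 signal of the C2 probe A_52_P428699 against that of A_51_P497985 in the hypothalamus (left, 16 mice) and the eye (right, 14 mice), WT in blue and KO in red, with axes of equal span. In the hypothalamus 5 mice lie apart at the lower left by both probes, whereas the eyes form 1 group.

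Eye and hypothalamus were paired by genotype and replicate number, which the labels do not state to be the same mouse. On this pairing the levels of a gene were compared between the tissues across 14 mice. Serping1 had an r of 0.87 (permutation p = 9e-05; Spearman coefficient 0.69, permutation p = 0.0083), 0.70 without the 2 mice farthest from the median and 0.88 after removal of slide means. Over all 41093 probes with values in these mice the median r was 0.07 and the 5th and 95th percentiles were -0.46 and 0.56. After adjustment over these probes the p for Serping1 was 0.064, with 0.0462% of probes below 0.05. Within WT mice r was 0.94 (exact permutation p = 0.0032), and within KO mice, whose levels covered a narrower range in both tissues, it was -0.08 (exact permutation p = 0.84). The difference between the genotypes was not tested. Of the 8 relations computed between tissues, that of Serping1 alone had a permutation p under 0.05 by Pearson r. C3 had an r of 0.21, Cfb 0.40 and C4b 0.06. The C2 probes ran the other way, with an r of -0.34 for A_51_P497985 and of -0.51 for A_52_P428699 (permutation p = 0.061; Spearman coefficient -0.60, permutation p = 0.027).

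The genes most like C3 across the eyes, by Pearson r over 14 eyes among probes well above background on all of them, were Ccl6 (a chemokine of myeloid cells, r = 0.92), Ces1d (a carboxylesterase, 0.90), Fcgr2b (the inhibitory IgG receptor, 0.88), Lcp2 (an adaptor of immune receptors), Sec24a (a coat protein of secretory vesicles), Cd48 (a surface protein of blood cells), Adam19 (a metalloprotease) and Grk5 (a receptor kinase), the last 5 with r of 0.87. Among these 27882 probes the 5th and 95th percentiles of r were -0.53 and 0.51. Across the 16 hypothalami the list was different: Ints7 (a subunit of the Integrator complex, r = 0.79), Pdgfc (a growth factor, 0.77), Nrros (a protein of microglia that anchors latent TGF-beta, 0.76), Trnau1ap (a cofactor of selenocysteine incorporation, 0.76), Nmi (an interferon-induced protein, 0.75), Nectin3 (an adhesion protein, 0.75), and the unnamed transcripts ENSMUST00000106702 (0.81) and 4933407L21Rik (0.76), with percentiles of -0.56 and 0.45. On Trnau1ap, Nmi and 4933407L21Rik the 5 mice of low hypothalamic C2 all lay below the other 11, so their r spans both levels. No member of the complement lists was among the 8 in either tissue.

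The other complement genes, set against C3 in the eye, had 9 positive and 2 negative slopes at an unadjusted p under 0.05 and 0 of 51 at an adjusted p, with a median slope of 0.53 against 0.04 over all probes. The positive ones were Vsig4 (a macrophage receptor for C3b, slope 1.57), C5ar1 (1.66), Cd46 (1.91), Fcna (a ficolin, 1.33), Cd55 (0.75), Cfp (0.55) and the C1 protease genes C1s2 (0.53), C1rb (0.52) and C1ra (0.49). Of the positive ones, C5ar1 was well above background in no WT eye. The negative ones were Vtn (-0.40) and Susd4 (-0.41). In the hypothalamus there were 3 positive and 4 negative slopes at an unadjusted p under 0.05, 0 of 51 at an adjusted p, and a median of 0.06. Several markers of other cell types had negative slopes on C3 in the eye at an unadjusted p under 0.05, where 3.44% of all probes had (4.34% had positive ones). These were 3 of 5 lens markers, 2 of 6 of the pigment epithelium and the photoreceptor genes Arr3 (-0.40) and Nrl (-0.26), with 0 at an adjusted p. In the hypothalamus, where 11.6% of all probes had such negative slopes, 2 of 5 lens and 3 of 6 ocular surface markers had them, the lens genes Cryba1 and Crybb2 being well above background in 3 and 11 of the 16 mice. The part of tissue composition in the slopes of the complement genes was not tested.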

How the data were processed

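RNA of the eye (7 WT, 7 KO) and hypothalamic block (8 WT, 8 KO) was labelled with Cy3 and hybridised to Agilent arrays of 60-base probes. The authors extracted spot intensities with Agilent's Feature Extraction, whose processed intensities, as deposited, are linear, background-subtracted and not normalized across arrays. A table of log2 values deposited by the authors, relative to each array's 75th percentile and to the median of each probe, served as an alternative. The marks for spots well above background came from the same software. Eyes of WT mouse 2 and KO mouse 1 were not analysed here.

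Processed intensities were averaged over spots of a probe after uneven or outlying spots (at most 91 on an array) were left out, taken to log2 and set relative to the array's 75th percentile. RefSeq gave the gene name through the accession for 26910 probes, the symbol for 5088 and a synonym for 816, and the array file gave it for 8360. Positions and probe sequences are those of the array files for the hypothalamus (mm9), matched to the eye by probe.

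limma 3.58.1 (R 4.3.3) was fitted over all 41174 probes, taking mouse as a random block (correlation 0.059) across tissues, and p-values were adjusted by Benjamini-Hochberg at 0.05. Single probes were tested by two-sided exact permutation and correlations by 100000 draws (Python 3.11.15, scipy 1.17.1, numpy 2.4.6, pandas 2.3.3). On simulated data with known genotype changes, 39.1% (eye) and 54.8% (hypothalamus) were recovered at 0.5 log2 units and 67.2% and 77.1% at 1, and for slopes on C3 17.5% and 0% at 0.5 and 45.6% and 22.2% at 1. The number of arrays limits the precision. A probe not well above background on any array of a tissue is given as a bound against the lowest signal well above background.

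Same-numbered WT and KO eyes deviated together (6 pairs, r 0.11 to 0.63) and also shared slides, so a fit with the number as a block was made. With this block C3 was at 0.38 (SE 0.16) and Cfb at 0.33 (SE 0.10) in the eye, and no call at an adjusted p changed for a complement gene. Alternatives were quantile normalization, normexp (offset 50), a filter on dim probes, slide and replicate blocks, the methods' t-test, the authors' log2 values and leaving out each array. Normexp started from median spot signals in the eye and mean spot signals in the hypothalamus, so its values between tissues mix both measures.

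The complement genes and the lists were chosen with earlier results of these data known. Named were every probe of the 7 genes, Per3, other complement genes past adjusted p under 0.05 between genotypes or with C3, the 2 highest and 2 lowest tissue differences of each list among probes clearly detected on all arrays of 1 tissue, and the 8 genes of highest r with C3 in each tissue; other genes were named after their values were seen.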

Additional observations from a re-analysis of the deposited data

Results flagged for a closer look

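Among 108 groups of arrays examined, 9 values lay far from the others of their group by Dixon's criterion, which chance alone reaches in about 1 group in 20. On the 10 complement probes there were 2: the hypothalamus of KO mouse 2 on the dim C3 probe A_52_P133594 (-6.48, below the level counted as well above background) and that of KO mouse 1 on Serping1 (-0.41, the next at -0.59). The eye of KO mouse 2 accounted for 4 others, with values of 1.57 for Cfd (the next at 4.18), -1.18 for C8g, -0.23 for Hc and -0.56 for Cd93. The rest were the hypothalamus of KO mouse 8 on Cd55b (-6.60, not well above background), that of KO mouse 7 on Vtn (3.60) and the eye of KO mouse 8 on Susd4 (1.31).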

How the results depend on the processing

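Of 980 alternative values for 46 probe-level results, 934 kept their direction and side of the threshold. The counts of complement probes called were 0 for genotype and for covariation and 9 between tissues in every fit without 1 mouse, with 41 to 43 other complement genes called between tissues. Between tissues 10 complement probes were called with normexp and with quantile normalization, the added one being C3ar1 at 0.38 and -0.34. For covariation with C3 in the eye under normexp 2 complement probes, both dim second probes, and 17 other complement genes were called (19887 probes array-wide, with a median slope of -0.58 over all probes).

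The following values changed sign, and the cause was not tested. None of them passed an adjusted p of 0.05 except C3ar1 between tissues, above. Under normexp the genotype effect was 0.10 for Cfi and 0.35 for C3ar1 in the eye and -0.0912 for C3ar1 in the hypothalamus, the slope on C3 in the eye -0.30 for Cfi and -1.01 for C3ar1, and the tissue difference of genotype effects 0.32 for Cfb and 0.43 for C3ar1 (0.0032 for Serping1 with quantile normalization). With a slide block the slope on C3 in the eye was -0.0458 for C4b and -0.15 for C3ar1, and without a genotype term -0.0300 for C4b. In the hypothalamus the slope of Cfi was 0.18 without a genotype term and 0.79 without the 2 arrays of most extreme C3, where that of Serping1 was -0.10.

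Leaving out 1 mouse gave ranges across 0 for the genotype effect in the eye of C4b (-0.17 to 0.0060), C3ar1 (-0.16 to 0.17) and Cfi (-0.35 to 0.18). The same held for the slope on C3 in the eye of C2 (-0.016 to 0.080), C4b (-0.051 to 0.36) and Cfi (-0.13 to 0.29) and in the hypothalamus of Cfi (-0.80 to 0.35) and Serping1 (-0.14 to 0.27), and for the tissue difference of genotype effects of C3ar1 (-0.23 to 0.14), Cfb (-0.15 to 0.036) and Serping1 (-0.045 to 0.010).

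With the replicate number as a block the genotype effect of C4b in the eye was 0.0585, calls over all probes went from 8 to 1 in the eye and from 17 to 5 in the hypothalamus, and no complement probe was called. In the hypothalamus same-numbered mice correlated at -0.03 to 0.32 over 8 pairs, and each pair also shared a slide.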

Other observations

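Interferon-induced genes had mostly higher values in KO hypothalami, none of which passed the adjusted threshold. Of 30 genes, 27 had a positive difference, 12 were higher at an unadjusted p under 0.05 (limma; 1.2% of all probes were) and 0 at an adjusted p, with a median of 0.22 against -0.01 over all probes. The largest differences among the 12 were those of Ifi27l2a (0.40), Isg15 (0.36), Rsad2 (0.34) and Iigp1 (0.32), and the antigen-presentation genes B2m (0.28) and H2-K1 (0.25) were among them as well. The number was 9 with normexp and ran from 8 without KO mouse 3 to 17 without KO mouse 4. In the eye 2 of the 30 were higher at an unadjusted p under 0.05, with a median of 0.03.

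The 5 mice with low hypothalamic C2 also stood apart from the other 11 on 0.726% of the 27147 probes well above background other than those of C2 (122 below and 75 above), a count made after the C2 values were seen and without a test. Klk6, Trim29, Slc1a2, Padi2 and Il18 were among the genes lower in the 5 mice, by 0.77, 0.72, 0.70 and 0.61 log2 units for the first 4, and R3hdm1, Atp2b1 and Bcl11a were higher by 1.02, 0.84 and 0.81. The labels give no property that these 5 mice share.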
